A study of Caenorhabditis elegans with 4 samples.

Results

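Chromosome X carried 1514 of the 15152 RNA polymerase II peaks of the series-wide list, 303 of the 2838 peaks listed for ChIP replicate 1 and 307 of the 2843 peaks listed for ChIP replicate 2. They are all the peaks whose deposited chromosome field reads X, with positions on the WormBase WS220 build that the file headers name. The series-wide peaks are described first, and the replicate lists show how each stretch of X came out in the single libraries. The series profiled AMA-1, the largest protein of the RNA polymerase II enzyme, by ChIP-seq (sequencing of the DNA that an antibody pulls down with its target) in the nematode Caenorhabditis elegans. It holds 2 ChIP libraries made with a rabbit polyclonal antibody, AMA-1 SDQ2358, and 2 libraries of input DNA. All 4 libraries came from mixed embryos of strain N2, labelled wild type, a mixed population of males and hermaphrodites, at 20 degrees Celsius. Their growth protocol is one for RNAi, and the tag RiIMB1 stands in all 4 titles without an explanation, so every value below belongs to that condition and no untreated group stands beside it. Mixed embryos pool many animals, stages and cell types: a peak missing from X because few cells used a gene and one missing because each cell held little polymerase cannot be told apart.

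RNA polymerase II transcribes protein-coding genes, and a ChIP peak marks where it was bound, at a start site or along the body of a gene. In C. elegans, hermaphrodites have a pair of X chromosomes and males a single one. A condensin-based dosage compensation complex binds both X chromosomes of hermaphrodites and lowers transcription from them. X is also known to hold few operons and few genes that are active in the germ line. These points are background and were not tested by the peak lists.

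Peaks were called separately for each replicate, with the caller given as MACS, and once for the whole series, with the caller given as MACS v2. On X the series-wide peaks were 317 bp wide at the median, with quartiles at 207 and 677.5 bp, whereas those of replicate 1 had a median of 3335 bp and those of replicate 2 one of 3048 bp, so a replicate peak usually spans several series-wide peaks. The score of a peak is the authors' value, has no stated unit, and is compared here only within a list. On X it ran from 1.38 to 189 in the series-wide list. In the replicate lists the most frequent score was 3100, which acts as a ceiling, and 42 X peaks of replicate 1 and 27 of replicate 2 reached it. The depth behind the peaks is unknown, because the lists give no read counts.

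Peaks on X were sparse in all 3 lists. The series-wide list had 85.4 peaks per Mb on X and 165 per Mb on the pooled autosomes, a ratio of 0.516. Peaks covered 6.58% of the span of X and 12.98% of that of the autosomes. Replicate 1 had 17.1 peaks per Mb on X and 30.8 on the autosomes, and replicate 2 had 17.3 and 30.8. X was the lowest of the 6 chromosomes in each of the 3 lists, and the next lowest was V, with 107 series-wide peaks per Mb. The chromosome is the unit of such a comparison. An exact two-sided permutation of the X label over the 6 chromosomes gave p = 0.167 for the density and for the covered share (adjusted p = 0.2 over 6 measures), which is the smallest p that 6 chromosomes allow, so no difference between X and the autosomes could pass 0.05 here.

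The sparseness showed at the scale of 100 kb too. A window of 100 kb held a median of 7 series-wide peaks on X, 7.5 on V and 14 on the pooled autosomes. Of 177 complete windows of X, 14 (7.91%) held no peak, against 18 of 208 (8.65%) on V and 31 of 821 (3.78%) on the autosomes together. Windows with 20 or more peaks were rarer on X, at 11 of 177 (6.21%), than on V, at 34 of 208 (16.3%), or on the autosomes, at 288 of 821 (35.1%). The windows richest in covered bases held 50% of the covered bases of X in 35 windows, or 19.8% of them, against 18.8% of windows on V and 22.3% on the autosomes. The median window was thus alike on X and V, and the crowded windows were fewer on X. That contrast between 2 chromosomes has no test.

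Most gaps between neighbouring X peaks were short, and a minority of long ones made up most of the chromosome. Of 1513 gaps on X, 891 (58.9%) were under 1 kb, 324 (21.4%) from 1 to 10 kb, 188 (12.4%) from 10 to 50 kb and 110 (7.27%) 50 kb or longer. On the pooled autosomes 66.1% of gaps were under 1 kb and 2.54% were 50 kb or longer. The median gap was 548 bp on X and 464 bp on the autosomes (exact permutation over 6 chromosomes, two-sided, p = 0.167, adjusted p = 0.2), the lower quartile was 164 bp on X and 158 bp on the autosomes, and the upper quartile was 4410 bp on X and 1885 bp on the autosomes. The lower quartiles were thus close, and the upper ones lay far apart. In the replicate lists the median gap itself lay far apart, at 25782.5 bp on X and 9532 bp on the autosomes in replicate 1 (2.70 times) and at 30663 bp on X and 9647 bp on the autosomes in replicate 2 (3.18 times). The 110 long gaps together made up 10.3 Mb, or 58.1% of X. Such gaps made up 54.4% of V and 34.5% of the pooled autosomes, and between 20.6% and 33.7% of each of I to IV.

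**Figure D1:**
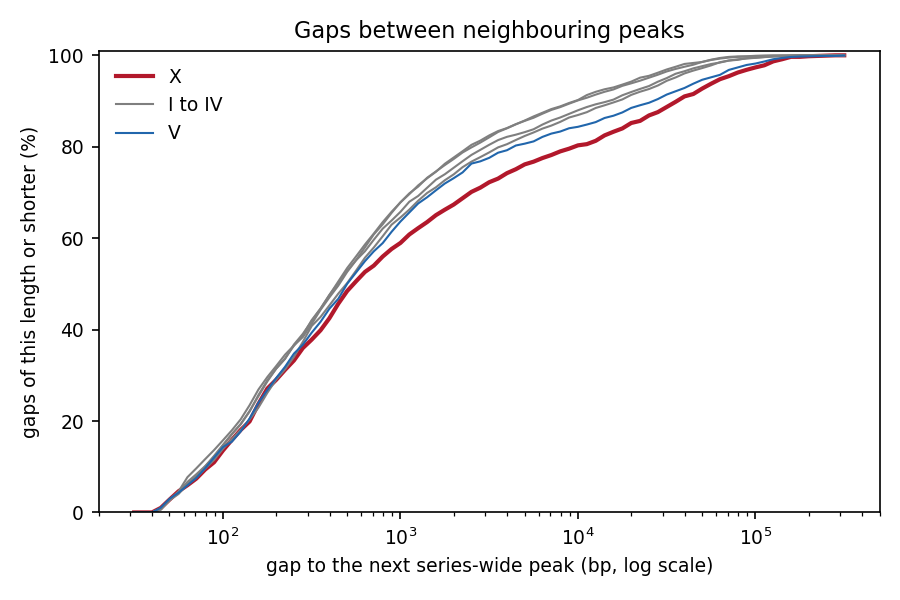
Cumulative share of gaps (vertical axis, %) by the length of the gap between neighbouring series-wide peaks (horizontal axis, bp, log scale), for X (red, thick), V (blue) and I to IV (grey, 1 line each). The curves run together for short gaps; at 1 kb X has reached 58.9% and the pooled autosomes 66.1%, and the curve of X lies lowest there.

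Few replicate peaks lay inside these long gaps, which follows largely from how a gap is defined. A replicate peak wholly inside a gap overlaps no series-wide peak, and such peaks were rare anywhere. On X they were 1 of 303 in replicate 1 and 7 of 307 in replicate 2. On the pooled autosomes they were 10 of 2535 and 23 of 2536. The counts below are thus no independent support for the gaps. No replicate 1 peak of X lay wholly inside one of the 110, and 3 of 307 replicate 2 peaks did, with a median score of 67.5, none of them overlapping a replicate 1 peak. The longest gap ran from 11041249 to 11293614 (252 kb), and neither replicate had a peak wholly inside it. Replicate peaks reached into it from the sides, 1 from replicate 1 and 2 from replicate 2. The next ran from 6377810 to 6616418 (239 kb), again with no replicate peak wholly inside. The third began 12.8 kb to its right and ran from 6629208 to 6835764 (207 kb). It held the strongest of the 3 replicate 2 peaks, which spans 6811657 to 6818013 (score 349). The fourth, from 9268639 to 9467607 (199 kb), and the fifth, from 11614702 to 11800270 (186 kb), had no replicate peak inside. All 5 lay in the middle part when X is divided into 3 equal lengths. Peaks standing alone in such stretches were few: 6 series-wide peaks of X had no neighbour within 50 kb on either side, of which 1 overlapped both replicate lists and 4 overlapped neither.

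Series-wide peaks were joined into a cluster where the gap between them was at most 2 kb. X had 494 clusters, or 27.9 per Mb, close to the 28.7 per Mb of V and below the 40.2 per Mb of the pooled autosomes. They were small: a cluster held 3.06 peaks on average on X, 3.72 on V and 4.11 on the autosomes. Of the 494, 209 were single peaks, 186 held 2 to 4 peaks, 72 held 5 to 9 and 27 held 10 or more. Those classes took in 13.8%, 34.4%, 29.7% and 22.1% of the X peaks, against 8.92%, 22.1%, 29.0% and 40.0% on the autosomes. There were 1.52 clusters of 10 or more per Mb on X, 2.73 on V and 4.38 on the autosomes.

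In all, 784 of the 1514 X peaks (51.8%) lay in clusters of 5 or more, against 67.2% of all series-wide peaks and 68.95% of those on the autosomes. Single autosomes ranged from 64.5% on IV to 72.8% on I, so X lay below each of them (exact permutation over 6 chromosomes, two-sided, p = 0.167, adjusted p = 0.2, the smallest possible). Peaks with no other peak within 2 kb made up 13.8% of X peaks and 9.40% of all peaks. A lower density by itself makes joined clusters smaller, and its part in this contrast was not tested. Chromosome V is the nearest in density, and 65.9% of its peaks lay in such clusters.

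**Figure D2:**
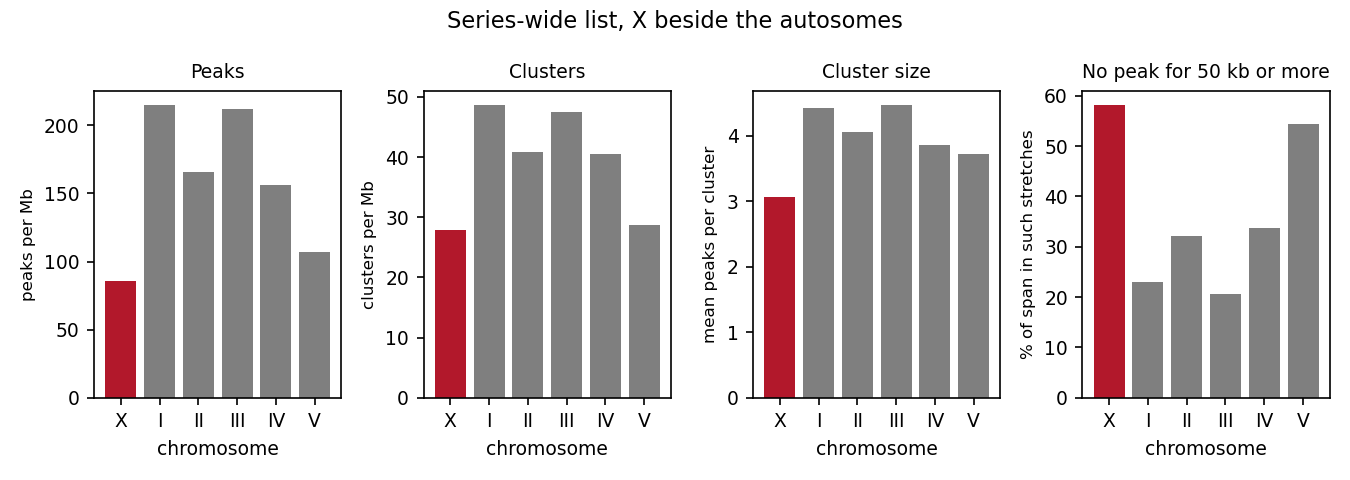
Peaks per Mb, clusters per Mb, mean peaks per cluster and the share of the span in stretches of 50 kb or more without a peak, 1 bar per chromosome in the series-wide list (X in red, autosomes in grey; single values with no error bar). X and V are close in clusters per Mb (27.9 and 28.7) and in the share of long stretches (58.1% and 54.4%), while X has fewer peaks per cluster than V (3.06 and 3.72).

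The 5 clusters with the most peaks on X had median scores from 4.34 to 8.64, on both sides of the X median of 5.75, and they differed in replicate support. The largest ran from 7953629 to 7968026 (14.4 kb) with 19 peaks that covered 71.3% of it and scored from 1.76 to 15.7. Of these peaks 11 overlapped both replicate lists, and the best replicate peaks there scored 1085 in replicate 1 and 1654 in replicate 2. The second, from 3455582 to 3469310 (13.7 kb), held 17 peaks that covered 45.3% of it and scored at most 7.88. It had almost no replicate support: 15 of its 17 peaks overlapped neither list, replicate 1 had 1 peak there with a score of 133, and replicate 2 had none.

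The third cluster, from 11024642 to 11041248 (16.6 kb), held 16 peaks and ended at the left edge of the longest gap. Replicate 1 had its best peak there at a score of 968, and replicate 2 had a single peak of 15.5 kb, its widest on X, at a score of 354. The fourth, from 15724841 to 15735749 (10.9 kb), also held 16 peaks, and all 16 overlapped both replicate lists. Each replicate had 1 peak across it, of 11.1 kb with a score of 189 in replicate 1 and of 11.9 kb with a score of 211 in replicate 2. It was thus broad and shared, with replicate scores below the median of X in both lists (318 in replicate 1 and 286 in replicate 2). The fifth, from 43269 to 62848 (19.6 kb) near the left end, held 14 peaks with scores from 4.48 to 116, and its best peak in each replicate was at the ceiling. Over all 99 X clusters of 5 or more peaks, 84 (84.8%) touched a peak of both replicates, 8 of replicate 1 only, 4 of replicate 2 only and 3 of neither. Of the 975 such autosomal clusters, 83.7% touched both.

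Along X the peaks were densest in its right part, though only narrowly so in replicate 2. The fullest 5% of X, from 85 to 90% of its span in all 3 lists, lay short of the right end. Of 3 equal parts of 5.91 Mb, the left held 530 series-wide peaks, the middle 420 and the right 564, or 89.7, 71.1 and 95.5 per Mb. Peaks covered 6.39% of the left part, 5.06% of the middle and 8.30% of the right. The replicate lists had the same order, with 97, 74 and 132 peaks in replicate 1 and 110, 83 and 114 in replicate 2. The outer parts together were 1.30 times as dense as the middle (interval 1.16 to 1.46, from a 95% Wilson interval that covers counting error only) in the series-wide list, 1.55 times in replicate 1 and 1.35 times in replicate 2. Among the best-scoring 10% of series-wide peaks on X the ratio was 2.13, with no autosomal ratio worked out for that class. The X peaks at the ceiling of the replicate lists were spread more evenly. The left, middle and right parts held 15, 10 and 17 of them in replicate 1, and 9, 8 and 10 in replicate 2. In replicate 1, 23 ceiling peaks had a replicate 2 partner at the ceiling, with 6 on the left, 8 in the middle and 9 on the right. For all series-wide peaks the outer-to-middle ratio lay between 1.34 on V and 1.41 on I among the autosomes, so X lay below each of them. In replicate 1 the autosomal ratios lay between 1.44 on IV and 1.54 on I, just below that of X. In replicate 2 they lay between 1.25 on IV and 1.37 on II, with X inside that range. These differences were not tested.

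At 1 Mb, the 17 complete bins of X held from 50 to 142 series-wide peaks, with a median of 76. The fullest ran from 15 to 16 Mb with 142 peaks, followed by 16 to 17 Mb with 118 and 14 to 15 Mb with 117, so that the 3 fullest bins were neighbours. The incomplete last bin, from 17000001 to 17718697, held 61 series-wide peaks, 10 of replicate 1 and 8 of replicate 2. The middle of X was not evenly thin, since the bin from 7 to 8 Mb held 113 series-wide peaks, 24 peaks of replicate 1 and 18 of replicate 2. The bin from 16 to 17 Mb had the most covered bases of the 17, at 141 kb, and the bin from 15 to 16 Mb had 105 kb. The median replicate scores of the bin from 16 to 17 Mb were 1245 in replicate 1 (31 peaks) and 1067 in replicate 2 (23 peaks), against 318 and 286 over the whole of X. Replicate 1 had a higher bin median only from 3 to 4 Mb, at 1405 over 4 peaks, where replicate 2 had 155 over 10. The emptiest bins were 12 to 13 Mb with 50 peaks, 11 to 12 Mb with 54 and 3 to 4 Mb with 55. They were not alike: 28.0% and 42.6% of the peaks of the first 2 overlapped both replicates, and 9.09% (5 of 55) of those from 3 to 4 Mb, where replicate 1 listed 4 peaks and replicate 2 listed 10. That last bin holds the unsupported cluster of 17 peaks described above. Across the 17 bins the counts of the replicates had a Spearman's rho of 0.79, a description over bins of 1 chromosome that share both libraries.

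**Figure D3:**
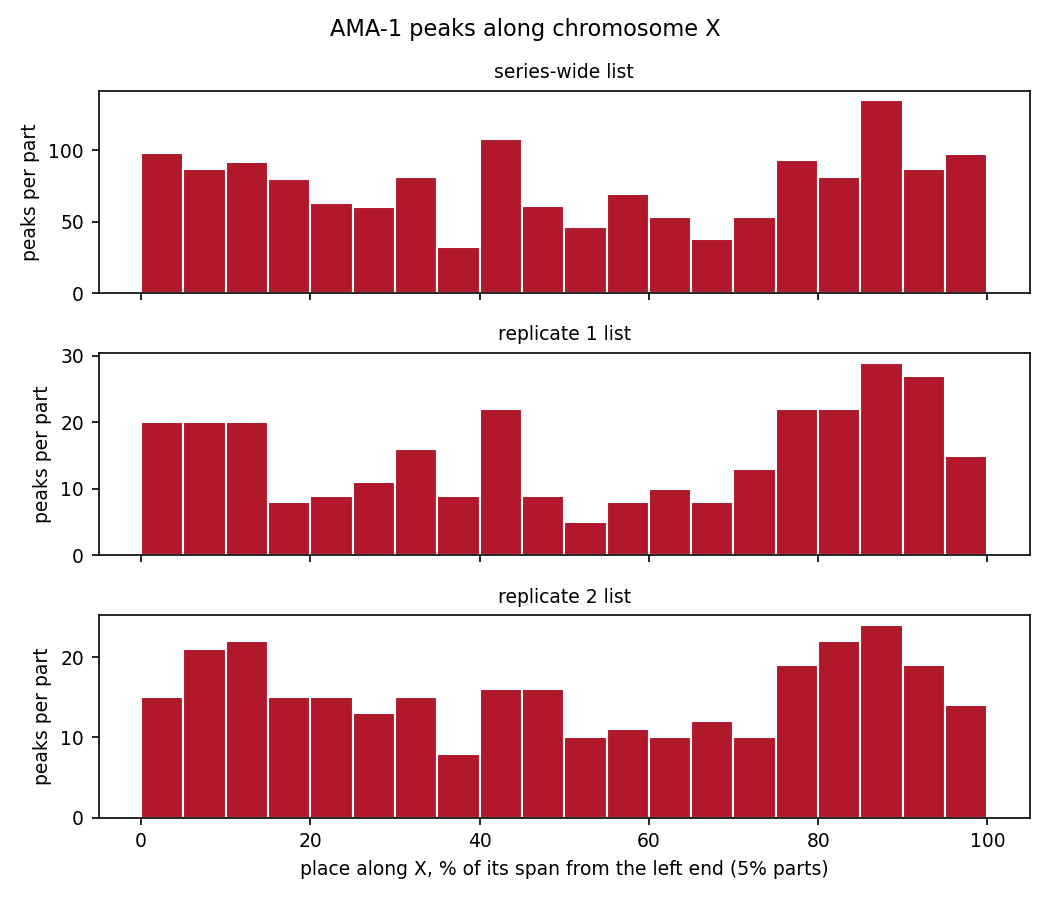
Number of peaks (vertical axis) in 20 equal parts of X, each 5% of its span, counted from the left end (horizontal axis, %), in the series-wide, replicate 1 and replicate 2 lists; each bar is a count with no error. All 3 lists are fullest from 85 to 90%, with 135 series-wide peaks, 29 of replicate 1 and 24 of replicate 2. The last part holds 97, 15 and 14. The middle is uneven: the part from 40 to 45% holds 108 series-wide peaks, while the middle part of 3 as a whole has 71.1 peaks per Mb, against 95.5 per Mb in the right part.

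High scores were about as frequent among X peaks as elsewhere in the series-wide list, and somewhat more frequent in the replicate lists. Among the best-scoring 10% of all series-wide peaks were 158 of the 1514 X peaks (10.4%), against 10.0% of all series-wide peaks. The median score was 5.75 on X and 5.86 on the pooled autosomes. In the replicate lists the median score was higher on X than on each autosome, at 318 on X against 271 on the autosomes in replicate 1, and at 286 against 219 in replicate 2. The ceiling was reached by 42 of 303 X peaks (13.9%, interval 10.4 to 18.2%) of replicate 1, against 10.1% of all its peaks, and by 27 of 307 (8.79%, interval 6.11 to 12.5%) of replicate 2, against 6.86% of all its peaks. Among single autosomes the ceiling share was highest on II in replicate 1, at 11.8%, and on V in replicate 2, at 8.39%, close to X. These score differences were not tested. Of the 158 best-scoring X peaks, 60 (37.97%) lay from 13 to 17 Mb, a stretch with 448 (29.6%) of all X peaks. That stretch is not one of the regions named by rule. It was chosen with earlier results of these data known, so the contrast is a description and no test.

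The 10 strongest X peaks that overlapped both replicate lists were also the 10 strongest of all X peaks, and in 9 of the 10 the replicate peaks were at the ceiling in both. The first ran from 6243013 to 6255614 (12.6 kb, score 189) and was the fourth highest of all 15152. It lay in a cluster of 11, inside a replicate 1 peak of 19.7 kb, the widest of that list on X, and overlapped a replicate 2 peak of 13.7 kb. The second longest gap of X begins 122 kb to its right. The second ran from 16564519 to 16573064 (8.55 kb, score 187), under replicate peaks of 9.17 and 8.99 kb.

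Both broad and narrow shapes occurred among the strongest peaks. The fifth ran from 16272594 to 16285132 (12.5 kb, score 131) and the sixth from 16924911 to 16939923 (15.0 kb, score 126). The fifth stood alone, with 12.2 kb to its nearest neighbour, and the sixth was the widest series-wide peak of X. With the second, they put 3 of the 10 in the bin from 16 to 17 Mb. Narrow ones were the third, from 14489737 to 14491715 (1.98 kb, score 152), and the ninth, from 8158903 to 8160683 (1.78 kb, score 111). Their replicate peaks spanned 2.60 and 2.81 kb at the third and 2.28 and 2.52 kb at the ninth, all narrower than the X medians of 3335 and 3048 bp, yet at the ceiling in both replicates.

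The other strong peaks lay in the outer parts of X. The fourth ran from 2328853 to 2336360 (7.51 kb, score 136) and the seventh from 14320896 to 14324526 (3.63 kb, score 121), each at the ceiling in both replicates. The eighth, from 59163 to 62848 (3.69 kb, score 116), belongs to the cluster at the left end described above. The tenth, from 314394 to 319667 (5.27 kb, score 110), was the single one below the ceiling, with replicate scores of 2910 and 2445. By position 3 of the 10 lay in the left part, 2 in the middle and 5 in the right.

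The widest and the strongest peaks were the same in part. Of the 5 widest series-wide peaks of X, 3 were among the 10 strongest. The other 2 ran from 10197380 to 10208250 (10.9 kb, score 89.7) and from 12990993 to 13001594 (10.6 kb, score 28.6). The first of these was at the ceiling in both replicates, and the second scored 2449 in replicate 1 and 1836 in replicate 2. Across all X peaks width and score had a Spearman's rho of 0.72, and 0.71 across the autosomal peaks, a description over peaks of 1 list. The median width of X peaks relative to the autosomes depended on the list: 317 bp on X and 347 bp on the autosomes in the series-wide list (exact permutation over 6 chromosomes, two-sided, p = 0.167, adjusted p = 0.2), but 3335 and 3058 bp in replicate 1 and 3048 and 2721.5 bp in replicate 2. The widest replicate peaks were shorter on X, at 19.7 kb in replicate 1 against 37736 bp on the autosomes, and at 15.5 kb in replicate 2 against 32284 bp. These maxima come from 303 and 307 peaks on X but 2535 and 2536 on the autosomes, and a maximum rises with the number of peaks. Among single autosomes the shortest maxima were nearer, at 24097 bp on V in replicate 1 and 21344 bp on I in replicate 2.

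Replicate support on X was near that of the whole list and was higher at higher scores. Of the 1514 X peaks, 563 met a peak of both replicates (37.2%, interval 34.8 to 39.7%), against 38.7% of all series-wide peaks. A further 350 (23.1%) overlapped replicate 1 only, against 23.0%, and 197 (13.01%) replicate 2 only, against 12.2%. The remaining 404 (26.7%) overlapped neither, against 26.2%. For the share in both, the exact two-sided permutation over 6 chromosomes gave p = 0.333 (adjusted p = 0.333). On the autosomes this share ranged from 37.3% on V to 40.1% on III. The X peaks in both were wide, with a median of 722 bp, and held 71.4% of the covered bases of X. Those in neither had a median of 224.5 bp and held 9.32%. The pooled autosomes were similar, with 681 bp and 68.3% of their covered bases for peaks in both. For peaks in neither they had 228 bp and 9.72%.

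By score, 18.4% of 402 X peaks in the lowest 25% overlapped both replicates (interval 14.9 to 22.5%), and 82.0% of 344 in the highest 25% (interval 77.6 to 85.7%). The autosomes had 19.1% and 75.8% in these classes. Of the 158 best-scoring X peaks, 151 (95.6%, interval 91.1 to 97.8%) overlapped both, 3 replicate 1 only, 4 replicate 2 only and 0 neither, against 89.5% of 1358 autosomal peaks in both. The share on X was thus lower than on the autosomes in the 3 lower score classes and higher above them, and those differences were not tested. Width rose with score too, from a median of 203 bp in the lowest 25% of X peaks to 1431.5 bp in the highest 25%. A wider peak meets an overlap of 1 bp more easily, so score and width cannot be told apart here. By cluster size, 10.5% of the 209 lone X peaks overlapped both replicates and 65.6% neither, while 48.5% of the peaks in clusters of 10 or more overlapped both and 15.9% neither. Between these end classes the autosomes differed in the same direction. They had 9.38% in both and 75.2% in neither among lone peaks, and 43.97% and 17.4% in clusters of 10 or more. In clusters of 5 to 9 the share in both was 45.1% on X and 46.8% on the autosomes. From there to clusters of 10 or more it rose on X and fell on the autosomes, which was not tested. The series-wide call may rest on reads of both replicates, so such overlap is no independent evidence of a site.

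**Figure D4:**
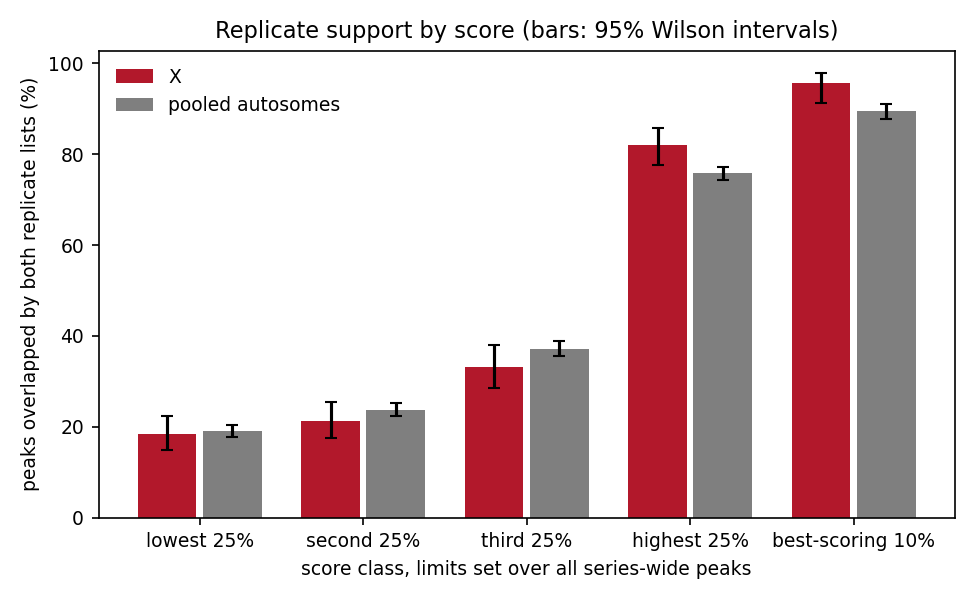
Share of series-wide peaks that overlap a peak in both replicate lists (vertical axis, %) by score class (horizontal axis), for X (red) and the pooled autosomes (grey), with 95% Wilson intervals that cover counting error only. The share on X is 18.4% in the lowest class and 95.6% in the best-scoring 10%, which is the upper part of the highest 25%.

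Compared directly, the replicates marked much of the same sequence of X. Of 303 replicate 1 peaks on X, 222 (73.3%) overlapped a replicate 2 peak, against 71.8% of all replicate 1 peaks, and of 307 replicate 2 peaks 218 (71.0%) overlapped a replicate 1 peak, against 77.0% of all replicate 2 peaks. They had 968 kb in common, equal to 71.5% of the X bases in the replicate 1 list and 76.1% in the replicate 2 list. The autosomal shares were 69.6% and 80.0%. In all, 172 pairs of X peaks matched one to one. Across them Spearman's rho was 0.79 for the scores and 0.83 for the widths, and across 1365 autosomal pairs it was 0.74 and 0.80. These are descriptions over peaks, which are no replicates of each other. In 21 of the 172 pairs both scores were at the ceiling.

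X peaks listed for a single replicate were weak and short, as such peaks were on the autosomes. The 81 of replicate 1 had a median score of 108 and a median width of 1876 bp, against 614 and 4066 bp for its 222 shared ones. The 89 of replicate 2 had medians of 84.9 and 1540 bp, against 549 and 4023 bp for its 218 shared ones. A few of the unshared X peaks were strong, and they were picked out after their values were seen. The strongest of replicate 1 ran from 10858567 to 10863887 (score 875), and the strongest of replicate 2 from 9924444 to 9930508 (score 705). Both lay over series-wide peaks, 4 at each place. At the right end, the list of replicate 1 included 17708426 to 17713658 (score 712), while the last X peak of replicate 2 ended at 17439179. At the left end replicate 2 began with a weak peak from 1 to 882 (score 82.7) and replicate 1 with one from 42816 to 50866 (score 1724).

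**Figure D5:**
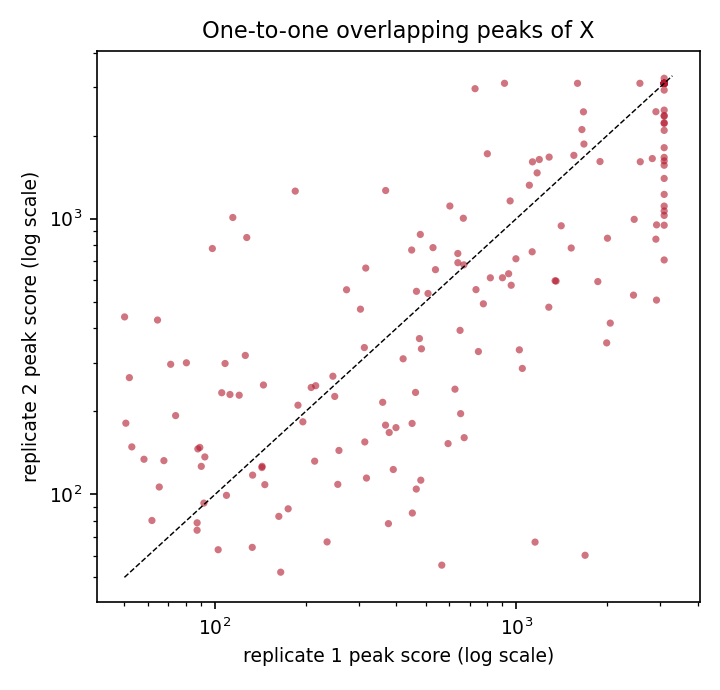
Score of the replicate 1 peak (horizontal axis, log scale) against that of the replicate 2 peak (vertical axis, log scale), for the 172 pairs of X peaks that overlap one to one (1 point per pair; the dashed line marks equal scores). The points scatter on both sides of the line, and 21 pairs reached the ceiling at 3100 in both lists.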

How the data were processed

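BWA and the ce10 assembly are named in the submitters' processing notes. The authors deposited peak lists with a score for each peak, and per the file headers the coordinates are those of WormBase WS220. The replicate lists name MACS and the series-wide list MACS v2 as caller. For the calling settings, the role of the input DNA and the way replicates were combined, the answer is not given in the sources used here. Starts, ends and scores were used as deposited, counted from 1. A chromosome's span ends with its last peak in the 3 lists. Peaks, clusters and gaps were assigned to bins by their midpoint, an overlap was at least 1 bp, and scores above 3100 were tied with 3100 for rank correlations. Intervals are 95% Wilson intervals. They cover counting error only, as if neighbouring peaks were independent. Labels do not say whether the replicates came from separate cultures.

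Named regions of X were the 10 strongest peaks in both replicate lists, the 5 widest peaks, the 5 clusters with the most peaks, the 5 longest gaps, and the 3 fullest and 3 emptiest bins of 1 Mb. The members, classes and rules were chosen with earlier results of these data known. The gene table at hand is of the WBcel235 assembly and was not joined to WS220 positions, so no gene or sequence is given. Cluster and overlap counts were tried on simulated lists of X (1273 to 1391 peaks), and 10 of 10 returned the planted counts exactly. Gaps were checked only for adding up, with the covered bases, to the span. The planted gaps lay well away from the 2 kb joining limit, so gaps near it were not tried. Calculations used Python 3.11.15, numpy 2.4.6, pandas 2.3.3 and scipy 1.17.1, and figures matplotlib 3.10.9.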

Additional observations from a re-analysis of the deposited data

How the results depend on the processing

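The lower density of X relative to the autosomes kept its direction under 4 of 4 alternatives (ratio 0.496 to 0.563), as did the covered share (0.504 to 0.556), the longer median gap under 3 of 3 (1.92 to 3.18 times that of the autosomes) and the lower share in clusters of 5 or more under 3 of 3, where the share on X was 39.2% with joining within 1 kb, 68.1% within 5 kb and 24.97% for the better-scoring 50%. The median width of X peaks relative to the autosomes was 0.914 in the series-wide list and reversed to 1.09 in replicate 1, 1.12 in replicate 2 and 1.10 for the best-scoring 10%. The share overlapped by both replicates, lower on X in the whole list, reversed to 55.7% on X against 55.4% on the autosomes for the better-scoring 50% and to 95.6% against 89.5% for the best-scoring 10% (exact permutation p = 0.667 and 0.333). With 1 replicate list required the share was 50.2% (without replicate 1) and 60.3% (without replicate 2), since fewer overlaps are asked for. The outer-to-middle ratio on X moved to 1.55 in the replicate 1 list, 2.13 for the best-scoring 10% and 1.52 when 4 equal parts were used. The rank correlation of replicate scores on X was 0.60 with all overlapping pairs counted and 0.81 where each peak had to cover 50% of the other. The cause of these shifts was not tested. No paired analysis was possible because only the ChIP libraries came with peak lists here. Read depth is unknown, so a stretch of X without a peak was not shown to lack polymerase.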
